A study of Mus musculus with 12 samples.

Results

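Potassium channel genes are the protein-coding genes whose symbols begin with Kcn, and the expression table of this study of mouse vascular smooth muscle cells (VSMC) held 94 of them among 55487 rows. Of the 94 genes, 20 were read often enough to test, with a value of at least 1 CPM (reads per 1000000 counted reads) in at least 3 of the 12 libraries. RNA was sequenced from primary VSMC cultures of passages 4 to 6, taken from mice 4 to 6 weeks old that were labelled wild-type (WT) or Tigar knockout (KO), Tigar being a gene for a fructose bisphosphatase that lowers glycolytic flux. Each genotype was left untreated or given 40 µg/L of PDGF-BB, a platelet-derived mitogen of smooth muscle, over 6 h, which gave 4 groups of 3 libraries: untreated WT, PDGF-BB-treated WT, untreated labelled KO and PDGF-BB-treated labelled KO. The labels give no strain or vessel of origin, and they do not say how the Tigar allele was made or whether replicates were separate mice or dishes. The p-values therefore measure the spread between these samples, which may be technical.

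Potassium channels set the resting membrane potential of smooth muscle: potassium leaving the cell holds the membrane negative, which keeps voltage-gated calcium channels closed and the muscle relaxed. Pore-forming subunits open on depolarisation (voltage-gated), on calcium or sodium inside the cell (the BK, SK, IK and Slo2 channels), near rest (inward rectifiers) or as background leaks (tandem-pore channels), and auxiliary subunits alter their gating or traffic. Cultured, proliferating VSMC are known for losing BK channels and gaining the intermediate-conductance channel encoded by Kcnn4.

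The libraries held 14953807 to 21698488 counted reads, and 14202 genes passed the same filter. The PDGF-BB-treated WT replicate 1 stood apart from its group, deviating from its group mean by 0.278 on the log2 scale (root mean square over genes) where each other library deviated by 0.0954 to 0.196, so calls of the named channel genes that change without it are given both ways. Labelled KO libraries did not hold less Tigar RNA: the gene read 6.99, 8.61 and 6.91 CPM in untreated WT, 10.0, 12.2 and 11.3 in untreated labelled KO, 11.5, 11.5 and 12.6 in treated WT and 14.6, 14.7 and 16.2 in treated labelled KO. It was higher in labelled KO in both comparisons (log2 change 0.52 and 0.33, limma-trend with Benjamini-Hochberg adjusted p = 0.00209 and 0.0292). Without the PDGF-BB-treated WT replicate 2, or any 1 of the PDGF-BB-treated labelled KO replicates, the second adjusted p was 0.0551 to 0.107. These reads do not show where the allele was altered, and genotype directions below refer to the libraries as labelled.

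The defining smooth muscle genes were present in part: the list of 8 summed to 4300 to 4891 CPM in untreated WT, 2835 to 3181 in treated WT, 4243 to 5969 in untreated labelled KO and 4998 to 5143 in treated labelled KO, while Tagln had group means of only 3.41 to 6.93 CPM and Des stayed below 1 CPM. The lower sum in treated WT was carried mostly by Cald1, with means of 2532 CPM untreated and 1326 treated. The other 7 overlapped in WT, at 1806 to 2292 CPM untreated and 1470 to 1958 treated. Of 7 smooth muscle genes tested, 4 were higher in labelled KO untreated and 6 with PDGF-BB, and 0 were lower; the summed levels overlapped untreated and did not with PDGF-BB. Markers of other cells differed between the genotypes. The 8 endothelial markers summed to 90.2 to 97.9 CPM in untreated WT and 75.2 to 78.0 in treated WT, against 611 to 697 and 572 to 591 in labelled KO, with 7 of 7 tested higher in both genotype comparisons. The 6 fibroblast markers summed to 308 to 347 and 192 to 236 CPM in WT against 1248 to 1534 and 858 to 891 in labelled KO, a difference carried by Col14a1. The other 5 summed to 107 to 123 and 74.8 to 84.8 CPM in WT and to 85.8 to 127 and 46.7 to 50.9 in labelled KO. Of the 5 fibroblast genes tested, Col14a1 and Pi16 were higher in labelled KO in both comparisons, and Pdgfra was lower with PDGF-BB. The 7 macrophage markers went the other way, from 126 to 135 and 97.4 to 132 CPM in WT to 29.3 to 35.7 and 29.3 to 32.8 in labelled KO, with 6 of 6 tested lower untreated and 5 with PDGF-BB. In bulk RNA, fewer cells of a type and less RNA per cell cannot be told apart, and the part of these cells in the channel results was not tested. Schwann and neuronal markers, of which Sox10 was at 0 reads in every library, summed to 55.2 to 61.9 and 59.4 to 89.1 CPM in WT and 41.1 to 50.9 and 69.0 to 71.8 in labelled KO. That sum joined genes moving in opposite directions. Mean S100b was 42.1 and 41.1 CPM in WT against 13.4 and 10.8 in labelled KO, and Tubb3 11.5 and 28.1 against 31.2 and 57.7. Of the 3 tested, 1 was higher and 2 lower in labelled KO untreated, and 1 and 1 with PDGF-BB. Striated muscle markers summed to 0.982 to 3.52 CPM over all libraries, and epithelial markers to 2.39 to 4.01 CPM in WT and 14.4 to 19.2 in labelled KO. The epithelial sum was nearly all Krt18, since Epcam, Krt8 and Cdh1 read at most 0.368 CPM in any library.

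**Figure D1:**
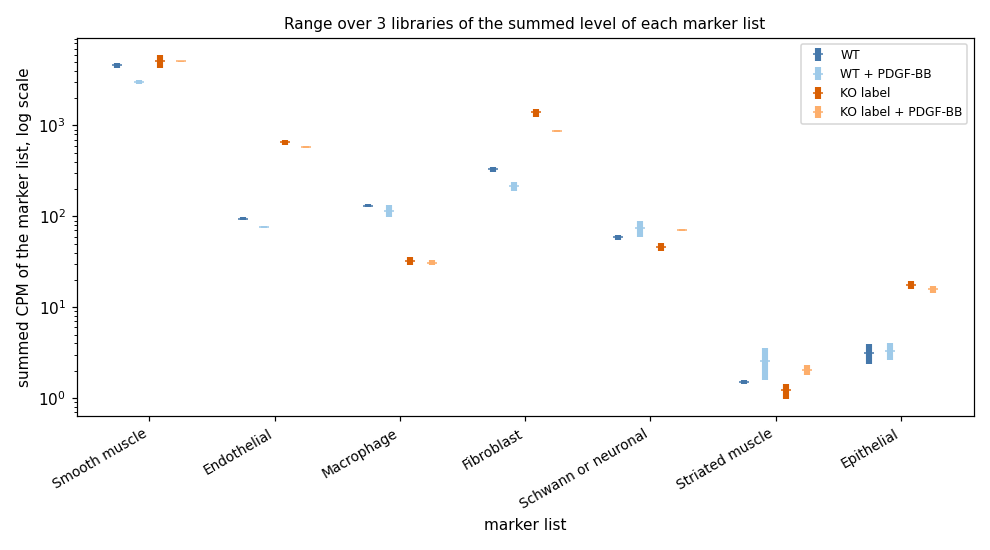
Summed CPM of each marker list (log axis) by group, with the range over 3 libraries. The endothelial list was higher and the macrophage list lower in labelled KO with and without PDGF-BB; the fibroblast and epithelial sums were higher through Col14a1 and Krt18, and the smooth muscle sums overlapped between genotypes untreated and were higher in labelled KO with PDGF-BB.

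Most of the family was little transcribed. The 20 genes past the filter were 21.3% of the 94, against 57.3% of the 21936 protein-coding genes. By role they were 8 of 40 voltage-gated pore genes, 5 of 8 calcium- or sodium-activated, 1 of 15 inward rectifiers, 2 of 14 tandem-pore genes and 4 of 17 auxiliary genes. Of the 74 below the filter, 15 had no read in any library, which allows up to 0.0145 CPM each (3 reads over the 206600962 reads of all libraries, counting error only). Another 59 were detected, and 6 of these, among them Kcnj15, Kcnmb1, Kcnrg and Kcne1l, reached 1 CPM in some library. No Kcna or Kcns gene passed, although Kcna5 encodes a textbook arterial delayed rectifier.

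Genes named in the smooth muscle literature were among those below the filter, so they were not tested. Kcnmb1, the smooth muscle auxiliary subunit of the BK channel, read 0.315, 0.967 and 0.953 CPM in untreated WT, 0.790, 0.399 and 0.613 in treated WT, 0.523, 0.602 and 0.667 in untreated labelled KO and 0.369, 0.584 and 1.06 in treated labelled KO. Kcnj8, the pore of the vascular ATP-sensitive channel, read 0.126, 0.102 and 0.179 CPM in untreated WT, 0.364, 0 and 0.184 in treated WT, 0.131, 0.134 and 0.167 in untreated labelled KO and 0.0461, 0.195 and 0.250 in treated labelled KO. The libraries of the 4 groups overlapped for both genes, at 29 to 40 reads a group for Kcnmb1 and 7 to 9 for Kcnj8. Kcnj2, the pore of the classical inward rectifier, read 0.0630, 0.356 and 0.536 CPM in untreated WT, 0.182, 0.199 and 0.307 in treated WT, 0.523, 0.802 and 0.890 in untreated labelled KO and 0.553, 0.486 and 0.750 in treated labelled KO. Its untreated genotype groups overlapped and its treated ones did not, at 11 and 34 reads.

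The filter admitted the 20 genes to different degrees. In all 12 libraries 9 genes were at 1 CPM or more, and no gene entered through the libraries of a single group alone. Kcnd3 entered on exactly 3 libraries, 2 of treated WT and 1 of treated labelled KO, and Kcnma1 on the 6 WT libraries. A gene let in by its high group is prone to differ, so counts over the 20 are descriptions and not support.

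Levels between genes are compared here as CPM per 1000 exon bases (mean ± SD, n = 3), with the exon length of the deposited table. In untreated WT the highest levels were Kcnh2 (4.66 ± 0.181), Kcnk2 (4.05 ± 0.535) and Kcnd1 (2.68 ± 0.203), followed by Kcnn1 (2.36 ± 0.0974), Kcne4 (2.34 ± 0.417) and Kcnn3 (2.31 ± 0.301), which differed from each other by less than their spread. The lowest were Kcnma1 (0.0901 ± 0.00549) and Kcnd3 (0.0684 ± 0.0377), also within their spread. With PDGF-BB, Kcnn4 moved from place 9 to place 1 of 20 in WT (9.83 ± 1.73) and from 14 to 3 in labelled KO (2.82 ± 0.293), and Kcne4 moved from 5 to 12 and from 6 to 15. The table's lengths are shorter than the union of GENCODE exons for some genes, so the levels and their order depend on the lengths used. Over union lengths, which were 1 to 5.26 times the table's, Kcnh2 stayed at place 1 in untreated WT (4.06), Kcnd1 (2.68) came before Kcnk2 (2.56), and Kcnn1 and Kcnn3 fell to places 6 and 9 (1.30 and 0.636). Kcnn4 went from place 11 to 2 in WT, at 3.74 with PDGF-BB, and from 15 to 4 in labelled KO. Over the table's lengths each of the 20 lay below the median of all 14202 tested genes in its group (7.79, 7.65, 7.09 and 6.83, in the order of the groups above), except Kcnn4 in treated WT.

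**Figure D2:**
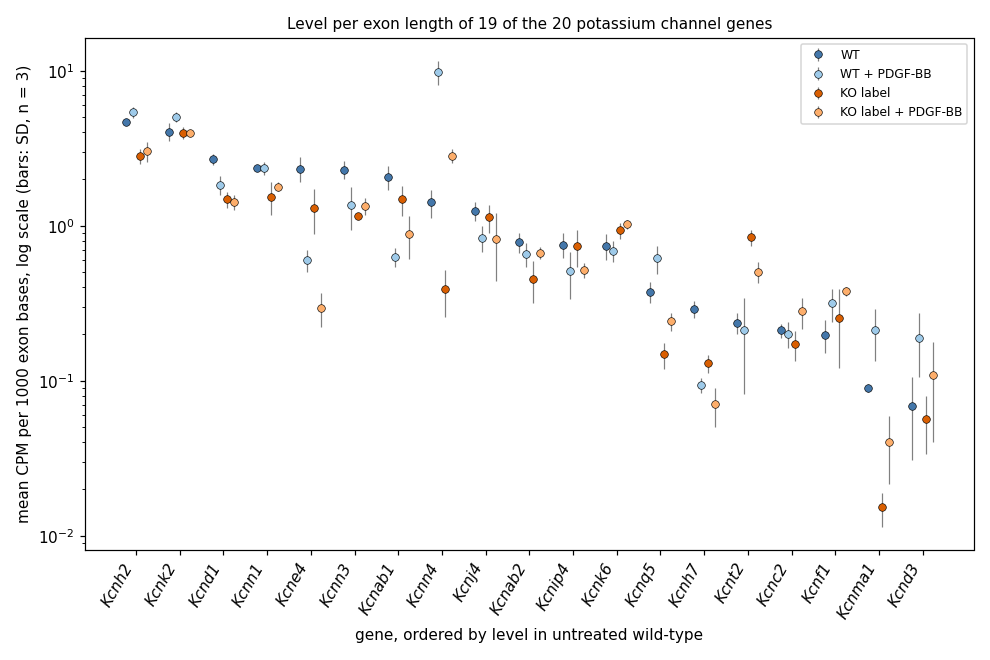
Mean CPM per 1000 exon bases of the deposited table's lengths (log axis, bars SD, n = 3) of 19 of the 20 genes, ordered by untreated WT, in the 4 groups. Kcnn4 rose to the top in treated WT (9.83), while Kcne4 fell from 2.34 to 0.603.

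The response to PDGF-BB asks which channel genes the growth factor changed within 6 h. The largest rise was in Kcnn4, in both genotypes, and the largest fall in Kcne4, a gene for an auxiliary subunit that inhibits several voltage-gated channels. Kcnq5 also rose in both genotypes, and Kcnh7 and Kcnab1 also fell in both. In WT 5 of the 20 genes were higher and 6 lower (limma-trend, Benjamini-Hochberg adjusted p under 0.05 over 14202 genes), which is 25% and 30% of the 20 against a background of 25.0% and 34.4% of all genes tested, 59.4% in either direction. In labelled KO 2 were higher and 5 lower, which is 10% and 25% against 17.6% and 24.8% of all genes, 42.4% in either direction. The members' shares were near or below the background. Under TMM scaling 6 were higher and 6 lower in WT (29.5% and 29.4% of all genes under that scaling), and 4 and 4 in labelled KO (21.0% and 21.6%). The libraries of the compared groups did not overlap for 14 of the 20 in WT and 11 in labelled KO, against 62.3% and 63.2% of all genes. The median log2 change of the 20 was -0.11 in WT and 0.10 in labelled KO, beside -0.08 and -0.07 for all genes, and quantile normalization turned the first to 0.18. Changes are on the log2(CPM + 1) scale, which understates those of genes of few reads.

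**Figure D3:**
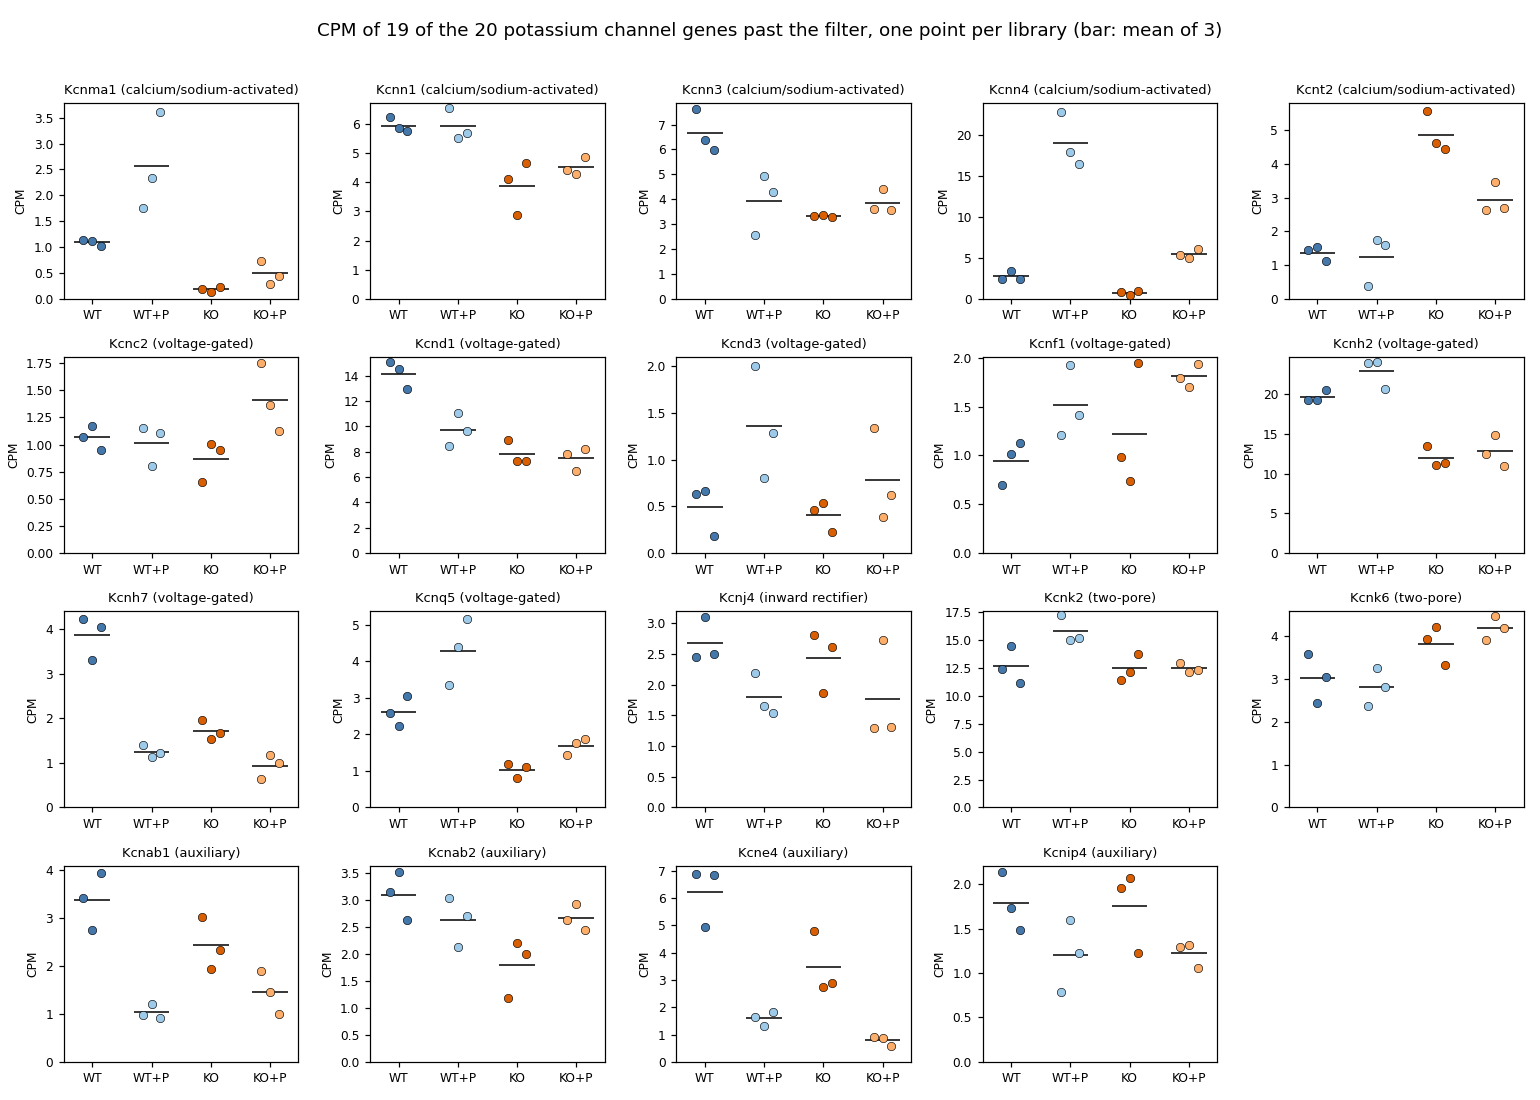
CPM of 19 of the 20 genes, 1 panel a gene (linear axes from 0), with 1 point per library and a bar at the mean of 3; WT and KO are untreated, and +P is with PDGF-BB. Kcnn4 rises from below 4 CPM to 16.5 or more in WT, and Kcnma1 lies below 1 CPM in every labelled KO library.

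Among the calcium- and sodium-activated pore genes, Kcnn4 (ENSMUSG00000054342, chr7:24370263-24386690), the intermediate-conductance calcium-activated channel (gene coordinates here and below are GRCm38, as deposited), read 2.46, 3.41 and 2.38 CPM in untreated WT and 22.9, 17.9 and 16.5 in treated WT. In labelled KO it read 0.851, 0.468 and 0.945 CPM untreated and 5.35, 5.01 and 6.12 with PDGF-BB. No 2 of the 4 groups overlapped, and treated labelled KO lay above untreated WT but below treated WT. Its mean CPM was 6.95 times higher with PDGF-BB in WT and 7.28 times in labelled KO (log2 change 2.42 and 1.89, SE 0.158 for each, limma-trend adjusted p = 4.64e-08 and 1.05e-06).

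The promoters of the genes with the largest rise and the largest fall in both genotypes are shown because they moved in opposite directions and both hold the E-box letters CACGTG, in capitals. The sequences are from RefSeq (GRCm38.p6), plus strand, 5′ to 3′. For Kcnn4 the 250 bases before the start, chr7:24370013-24370262, hold it at bases 24370130 to 24370135, 133 bases before the start. For Kcne4 only 30 bases, chr1:78816845-78816874, are shown because GENCODE's first exon begins inside the window, at base 78816758. Its E-box, at 78816857 to 78816862, is 54 bases before the RefSeq start but after the GENCODE start. It is thus upstream by the RefSeq start only.
Kcnn4: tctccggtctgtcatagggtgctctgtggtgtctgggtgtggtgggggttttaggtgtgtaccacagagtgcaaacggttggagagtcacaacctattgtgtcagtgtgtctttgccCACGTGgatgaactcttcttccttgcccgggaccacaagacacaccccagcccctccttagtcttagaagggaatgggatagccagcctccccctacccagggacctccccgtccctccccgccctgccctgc
Kcne4: ttcctcccggaaCACGTGacgatgcatttc
The letters were sought on both strands of the 250 upstream bases. CACGTG was in 6.02% of 32851 promoters and in 4 of the 30 promoters of the 17 channel genes with an entry (those of Kcnab1, Kcne4 and Kcnn4). TGANTCA (AP-1) was in 6.75% of all promoters and in 2 of the 30 (of Kcnip4 and Kcnk2), and the cAMP element TGACGTCA (1.55%) and the CArG box of serum response factor (1.47%) were in 0 of the 30. A match is a description of letters and not a binding site.

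Kcnma1 (ENSMUSG00000063142, chr14:23289431-24014491), the BK channel pore, read 1.13, 1.12 and 1.01 CPM in untreated WT and 1.76, 2.33 and 3.62 in treated WT. The labelled KO libraries read 0.196, 0.134 and 0.222 CPM untreated and 0.737, 0.292 and 0.437 with PDGF-BB. No 2 groups overlapped, and every labelled KO library lay below every WT library. It rose in WT, 2.36 times in mean CPM (log2 change 0.74, SE 0.176, limma-trend adjusted p = 0.00276). In labelled KO its mean CPM was 2.65 times higher with PDGF-BB, with a log2 change of 0.32 (adjusted p = 0.162). With a pseudocount of 0.1 the labelled KO value was 0.99 (adjusted p = 0.0308). The 3 untreated labelled KO libraries held only 9 reads in all (0.187 CPM, exact Poisson 95% interval 0.0853 to 0.354, counting error only), and 5.98% of the gene's exon bases overlap a gene on the opposite strand.

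Kcnn3 (ENSMUSG00000000794, chr3:89520164-89675132), a small-conductance calcium-activated (SK) channel, read 7.63, 6.36 and 5.96 CPM in untreated WT and 2.55, 4.92 and 4.29 in treated WT. Labelled KO values were 3.34, 3.34 and 3.28 CPM untreated and 3.59, 4.43 and 3.56 with PDGF-BB. Untreated WT lay above all 9 other libraries, among which treated WT overlapped both labelled KO groups. It fell in WT by 0.66 on the log2 scale (SE 0.169, limma-trend adjusted p = 0.00421), with a change of 0.17 in labelled KO (adjusted p = 0.459). The other SK gene, Kcnn1, had log2 changes of -0.01 and 0.19 (adjusted p = 0.959 and 0.275), and the second passed with quantile normalization (0.38, adjusted p = 0.0340).

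Kcnt2 (ENSMUSG00000052726, chr1:140246158-140612067), a sodium-activated Slo2 channel, read 1.45, 1.53 and 1.13 CPM in untreated WT and 0.364, 1.73 and 1.59 in treated WT. Corresponding labelled KO values were 5.56, 4.61 and 4.45 CPM untreated and 2.63, 3.45 and 2.69 with PDGF-BB. The low treated WT value was that of replicate 1, and the 2 labelled KO groups did not overlap. Its fall in labelled KO was just past the threshold (log2 change -0.58, SE 0.219, limma-trend adjusted p = 0.0457), and in WT the change was -0.15 (adjusted p = 0.571). The call was lost when any 1 of the untreated WT, untreated labelled KO or treated labelled KO libraries was left out (adjusted p 0.0516 to 0.145) and in 8 of the 9 other settings that tested the gene (adjusted p 0.0527 to 0.165).

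Among the voltage-gated pore genes, Kcnh7 (ENSMUSG00000059742, chr2:62693414-63184287), of the ERG channel family, read 4.22, 3.31 and 4.05 CPM in untreated WT and 1.40, 1.13 and 1.23 in treated WT. The labelled KO libraries read 1.96, 1.54 and 1.67 CPM untreated and 0.645, 1.17 and 1.00 with PDGF-BB. It was lower in every treated library of a genotype than in every untreated one. The log2 changes were -1.11 and -0.50 (SE 0.138 for each, limma-trend adjusted p = 1.63e-05 and 0.0105), the second lost without treated labelled KO replicate 1 (-0.38, adjusted p = 0.0571), with no filter (adjusted p = 0.0532) and with quantile normalization (-0.32, adjusted p = 0.0755).

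Kcnq5 (ENSMUSG00000028033, chr1:21398403-21961942), of the M-current channel family, which dilates arteries when opened, read 2.58, 2.24 and 3.04 CPM in untreated WT and 3.34, 4.39 and 5.15 in treated WT. Labelled KO values were 1.18, 0.802 and 1.11 CPM untreated and 1.43, 1.75 and 1.87 with PDGF-BB. No 2 groups overlapped, and every labelled KO library lay below every WT library. It rose by 0.54 in WT and 0.40 in labelled KO on the log2 scale (SE 0.151 for each, limma-trend adjusted p = 0.00780 and 0.0459). The second call was lost without any 1 of the untreated WT or untreated labelled KO libraries, treated WT replicate 2, or treated labelled KO replicates 2 and 3 (0.32 to 0.46, adjusted p 0.0508 to 0.152), and with no filter (adjusted p = 0.160).

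The A-type channel genes, which carry rapidly inactivating currents, went opposite ways in WT. Kcnd1 (ENSMUSG00000009731, chrX:7822289-7838280) read 15.1, 14.5 and 13.0 CPM in untreated WT and 8.44, 11.0 and 9.63 in treated WT, with no overlap, and it fell by 0.51 on the log2 scale (SE 0.124, limma-trend adjusted p = 0.00314). Corresponding labelled KO values were 8.90, 7.29 and 7.28 CPM untreated and 7.83, 6.52 and 8.18 with PDGF-BB, which overlapped (log2 change -0.05, adjusted p = 0.764). Kcnd3 (ENSMUSG00000040896, chr3:105452330-105674002) read 0.630, 0.662 and 0.179 CPM in untreated WT, 2.00, 0.798 and 1.29 in treated WT, 0.458, 0.535 and 0.222 in untreated labelled KO, and 1.34, 0.389 and 0.625 in treated labelled KO. The WT groups of Kcnd3 did not overlap and the labelled KO groups did. Kcnd3 rose in WT by 0.65 (SE 0.227, limma-trend adjusted p = 0.0246), a call lost without untreated WT replicate 3 (0.49, adjusted p = 0.113), and the gene left the test without treated WT replicate 1 or 3 or treated labelled KO replicate 1. Because Kcnd3 entered the test only through treated libraries, where it was high, this p is no independent support; with no filter it was 0.0491. In labelled KO its log2 change was 0.32 (adjusted p = 0.283).

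Other voltage-gated pore genes did not pass the test for PDGF-BB. Kcnh2, the ERG channel of cardiac repolarisation, had log2 changes of 0.20 in WT and 0.08 in labelled KO (SE 0.115 for each, limma-trend adjusted p = 0.143 and 0.588), and the first passed with TMM scaling, edgeR and DESeq2 (0.28 to 0.29, adjusted p 0.0351 to 0.0436). Kcnc2, of the fast-activating channel family, had means of 1.07, 1.02, 0.868 and 1.41 CPM in untreated WT, treated WT, untreated labelled KO and treated labelled KO. Its log2 change in labelled KO of 0.37 (SE 0.140, limma-trend adjusted p = 0.0504) fell just short, and it passed without treated WT replicate 1 (adjusted p = 0.0486) or treated labelled KO replicate 3 (0.45, adjusted p = 0.0387), and with TMM scaling, quantile normalization and edgeR (0.40, 0.56 and 0.77, adjusted p = 0.0355, 0.00736 and 0.0352). Kcnf1, a modifier subunit that forms no channel alone, had means of 0.948, 1.52, 1.22 and 1.81 CPM in the same order, with log2 changes of 0.37 and 0.38 (adjusted p = 0.105 and 0.120). Both Kcnf1 values passed without untreated labelled KO replicate 3 (0.37 and 0.60, adjusted p = 0.0469 and 0.0125) and with quantile normalization (0.64 and 0.57, adjusted p = 0.00999 and 0.0255).

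Of the tandem-pore genes, Kcnk2 (ENSMUSG00000037624, chr1:189207930-189402273), a stretch-activated leak channel, read 12.4, 14.5 and 11.1 CPM in untreated WT and 17.2, 15.0 and 15.2 in treated WT. In labelled KO it read 11.5, 12.2 and 13.7 CPM untreated and 13.0, 12.2 and 12.3 with PDGF-BB. Treated WT lay above all 9 other libraries, which overlapped each other. Kcnk2 rose in WT by 0.30 on the log2 scale (SE 0.108, limma-trend adjusted p = 0.0263), and the value in labelled KO was 0.01 (adjusted p = 0.975). The WT call was lost without untreated WT replicate 1 or 3 or treated WT replicate 1 (0.22 to 0.29, adjusted p 0.0599 to 0.123) and in a fit of the compared groups only (adjusted p = 0.0740), and 12.2% of the gene's exon bases overlap a gene on the opposite strand, with the strand setting of the counting not given in the sources used here. Kcnk6 had log2 changes of -0.07 and 0.11 (adjusted p = 0.662 and 0.556). The 1 inward rectifier past the filter, Kcnj4, had means of 2.69, 1.79, 2.43 and 1.78 CPM in the order above, with log2 changes of -0.40 and -0.34 (adjusted p = 0.0831 and 0.174). The Kcnj4 value passed in WT without treated WT replicate 1 (-0.50, adjusted p = 0.0363) and with the compared groups only (adjusted p = 0.0494), and both passed without treated labelled KO replicate 2 (-0.40 and -0.57, adjusted p = 0.0344 and 0.0189).

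Among the auxiliary genes, Kcne4 (ENSMUSG00000047330, chr1:78816758-78820028) read 6.87, 4.94 and 6.85 CPM in untreated WT and 1.64, 1.33 and 1.84 in treated WT. The labelled KO libraries read 4.78, 2.74 and 2.89 CPM untreated and 0.922, 0.875 and 0.562 with PDGF-BB. No 2 groups overlapped. The log2 changes were -1.46 and -1.30 (SE 0.180 for each, limma-trend adjusted p = 1.42e-05 and 7.97e-05).

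Kcnab1 (ENSMUSG00000027827, chr3:64949196-65378223), a beta subunit that speeds inactivation of voltage-gated channels, read 3.40, 2.75 and 3.93 CPM in untreated WT and 0.972, 1.20 and 0.920 in treated WT. Labelled KO values were 3.01, 1.94 and 2.34 CPM untreated and 1.89, 1.46 and 1.00 with PDGF-BB. Treated libraries lay below untreated ones in both genotypes, by a narrow gap in labelled KO. The log2 changes were -1.10 and -0.49 (SE 0.166 for each, limma-trend adjusted p = 8.72e-05 and 0.0301). The second call was lost without untreated labelled KO replicate 1 or 3 or treated labelled KO replicate 2 or 3 (-0.50 to -0.35, adjusted p 0.0606 to 0.139) and in 4 other settings (adjusted p 0.0538 to 0.141). Kcnab2, another beta subunit, had log2 changes of -0.18 in WT (adjusted p = 0.350) and 0.41 in labelled KO (adjusted p = 0.0571). The Kcnab2 value in labelled KO passed without treated WT replicate 1 or untreated labelled KO replicate 2 (0.41 and 0.52, adjusted p = 0.0347 and 0.0343), and with TMM scaling, quantile normalization and edgeR (0.45, 0.60 and 0.62, adjusted p = 0.0386, 0.0130 and 0.0494). Kcnip4, a calcium-binding partner of A-type channels, had means of 1.79, 1.20, 1.75 and 1.22 CPM in the order of the groups above, with log2 changes of -0.35 and -0.30 (adjusted p = 0.0908 and 0.175), and the first passed without treated WT replicate 2 (-0.48, adjusted p = 0.0390).

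**Figure D4:**
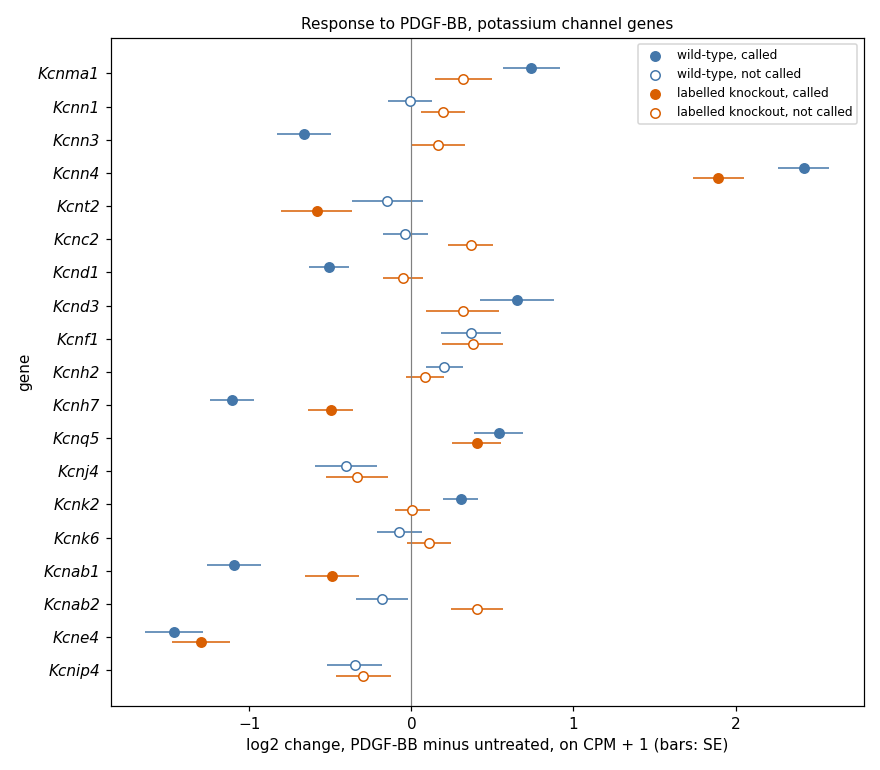
Log2 change with PDGF-BB on log2(CPM + 1) for 19 of the 20 genes in WT and in labelled KO, with standard errors from the fit; the vertical line marks 0. Kcnn4 (2.42 and 1.89) and Kcne4 (-1.46 and -1.30) mark the ends.

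Summed over the 20 genes, channel transcripts came to 109 to 114 CPM in untreated WT, 106 to 110 in treated WT, 68.9 to 79.3 in untreated labelled KO and 69.8 to 75.6 in treated labelled KO. Without Kcnn4 the WT sum went from a range of 105 to 112 to one of 84.9 to 92.0 CPM. The WT total in CPM thus overlapped between treatments, and the sum of the remaining 19 genes did not. Kcnn4 was set aside as the largest riser in these data, so the lower remainder follows in part from that choice. The 19 genes did not all fall. Summed per 1000 exon bases of the table, the WT total went from a range of 27.8 to 29.2 to one of 30.4 to 33.8, while over union lengths the WT groups overlapped, with all 6 libraries between 19.5 and 20.9. Without Kcnn4 the treated WT sum lay below the untreated one over the table's lengths (22.0 to 23.0 against 26.5 to 28.0), and over union lengths too, where the lowest untreated library stood at 19.4.

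Labelled KO against WT asks which channel genes differ with the Tigar label. Most genes that passed were lower in labelled KO: Kcnn4, Kcnma1, Kcnq5, Kcnh2 and Kcne4 were lower both untreated and with PDGF-BB, and Kcnt2 was higher in both. Untreated, 1 of 20 was higher and 11 were lower, which is 5% and 55% against 9.15% and 24.8% of all genes tested, 34.0% in either direction. With PDGF-BB 2 were higher and 6 lower, which is 10% and 30% against 10.6% and 26.6%, 37.2% in either direction. The untreated share called lower was above the background and the treated share near it. Groups did not overlap for 12 of the 20 untreated and 10 with PDGF-BB, against 54.7% and 49.5% of all genes. The comparisons use libraries that also enter the PDGF-BB comparisons, and the marker lists of other cells above moved with the same labels. On the deposited scale the median change of all genes was -0.13 untreated and -0.14 with PDGF-BB, and that of the 20 was -0.55 and -0.27. TMM scaling, which removes a general shift, moved the median of all genes to -0.01 and -0.05, and the share of called genes that were higher from 27.0% to 48.7% and from 28.5% to 47.4%. Under it 1 channel gene was higher and 11 lower untreated (13.6% and 14.3% of all genes under that scaling), and 2 higher and 4 lower with PDGF-BB (13.6% and 15.1%).

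Of the 5 calcium- and sodium-activated genes, 4 were lower and 1 higher untreated, beside 24.8% and 9.15% of all genes. With PDGF-BB 2 were lower and 1 higher, beside 26.6% and 10.6%. In Kcnn4, mean CPM was 3.64 times higher in WT untreated and 3.48 times with PDGF-BB (log2 change in labelled KO -1.10 and -1.62, SE 0.158 for each, limma-trend adjusted p = 0.000143 and 4.39e-06). Kcnma1 was 5.91 and 5.25 times higher in WT by mean CPM (log2 change -0.82 and -1.24, SE 0.176 for each, adjusted p = 0.00278 and 0.000129), and edgeR on the recovered reads gave -2.37 and -2.25. Because Kcnma1 entered the test only through the WT libraries, where it was high, these p are no independent support; with no filter they were 0.00730 and 0.000482. Kcnn3 was lower untreated (-0.82, SE 0.169, adjusted p = 0.00210), and its value with PDGF-BB was 0.01 (adjusted p = 0.965).

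Kcnn1 (ENSMUSG00000002908, chr8:70842049-70863258), an SK channel known mainly from neurons, read 6.24, 5.86 and 5.78 CPM in untreated WT and 4.12, 2.88 and 4.67 in untreated labelled KO. With PDGF-BB it read 6.56, 5.52 and 5.70 CPM in WT and 4.42, 4.28 and 4.87 in labelled KO. The 6 WT libraries lay above the 6 labelled KO libraries. The log2 changes were -0.53 and -0.32 (SE 0.137 for each, limma-trend adjusted p = 0.00915 and 0.0777), and only the first passed. DESeq2 gave an adjusted p of 0.0526 for the first, and the second passed without untreated labelled KO replicate 2 (-0.32, adjusted p = 0.0350). Kcnt2 stood at mean 1.37 ± 0.210 CPM in untreated WT and 4.87 ± 0.601 in untreated labelled KO (SD, n = 3), and it was higher in labelled KO by 1.31 untreated and 0.87 with PDGF-BB (SE 0.219 for each, adjusted p = 0.000448 and 0.00743). Without treated WT replicate 1, where Kcnt2 was low, the second value was 0.55.

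Of the 8 voltage-gated pore genes, 5 were lower untreated and 2 with PDGF-BB, beside 24.8% and 26.6% of all genes, and none was higher. Kcnh2 (ENSMUSG00000038319, chr5:24319589-24351604) read 19.2, 19.2 and 20.6 CPM in untreated WT and 13.5, 11.0 and 11.3 in untreated labelled KO. With PDGF-BB it read 23.9, 24.0 and 20.6 CPM in WT and 12.4, 14.9 and 11.0 in labelled KO. Every WT library lay above every labelled KO library, with log2 changes of -0.68 and -0.80 (SE 0.115 for each, limma-trend adjusted p = 0.000486 and 0.000141). Kcnq5 was also lower in both (log2 change -0.83 and -0.97, SE 0.151 for each, adjusted p = 0.000853 and 0.000288).

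Kcnd1 and Kcnh7 were lower in labelled KO untreated, with log2 changes of -0.79 (SE 0.124) and -0.83 (SE 0.138, limma-trend adjusted p = 0.000285 and 0.000412 in that order). With PDGF-BB their values were -0.33 and -0.22 (adjusted p = 0.0520 and 0.215), which missed the threshold. Kcnd1 passed without treated WT replicate 1 (-0.42, adjusted p = 0.0122), without untreated labelled KO replicate 1 (adjusted p = 0.0438) and among genes with a mean of at least 5 CPM (adjusted p = 0.0465). Kcnd3, Kcnc2 and Kcnf1 passed in neither genotype comparison, with log2 changes between -0.41 and 0.25.

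Of the 4 auxiliary genes, 2 were lower untreated and 1 with PDGF-BB, beside 24.8% and 26.6% of all genes. Kcne4 was lower in labelled KO in both, with log2 changes of -0.71 and -0.54 (SE 0.180 for each, limma-trend adjusted p = 0.00803 and 0.0300). The second call was lost without treated WT replicate 3 or treated labelled KO replicate 2 or 3 (-0.58 to -0.45, adjusted p 0.0563 to 0.113), and with no filter, TMM scaling or edgeR (adjusted p 0.0503 to 0.108). Kcnab2 (ENSMUSG00000028931, chr4:152390742-152477910) read 3.15, 3.51 and 2.62 CPM in untreated WT, 1.18, 2.21 and 2.00 in untreated labelled KO, 3.04, 2.13 and 2.70 in treated WT and 2.63, 2.92 and 2.44 in treated labelled KO. It was lower untreated, where the groups did not overlap (-0.56, SE 0.161, adjusted p = 0.0154), and its treated groups overlapped (0.02, adjusted p = 0.926). The untreated call was lost without untreated WT replicate 2 or untreated labelled KO replicate 1 (-0.49 and -0.39, adjusted p = 0.0666 and 0.0595) and in 4 other settings (adjusted p 0.0563 to 0.0960).

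Both tandem-pore genes passed with PDGF-BB, in opposite directions. Kcnk6 (ENSMUSG00000046410, chr7:29221926-29232515), a leak channel found in vascular smooth muscle, read 3.59, 2.44 and 3.04 CPM in untreated WT, 2.37, 3.26 and 2.82 in treated WT, 3.93, 4.21 and 3.34 in untreated labelled KO and 3.92, 4.47 and 4.19 in treated labelled KO. The treated groups did not overlap, and Kcnk6 was higher in labelled KO by 0.45 (SE 0.137, limma-trend adjusted p = 0.0211), against 0.27 untreated (adjusted p = 0.153; with quantile normalization 0.43, adjusted p = 0.0267). The call with PDGF-BB was lost without treated WT replicate 1 or treated labelled KO replicate 2 or 3 (0.36 to 0.45, adjusted p 0.0556 to 0.0745), and with no filter (adjusted p = 0.0882). Kcnk2 was lower with PDGF-BB (log2 change -0.32, SE 0.108, adjusted p = 0.0333), against -0.02 untreated (adjusted p = 0.910). Its call was lost without treated WT replicate 1 or any 1 of the treated labelled KO libraries (-0.34 to -0.26, adjusted p 0.0612 to 0.0942) and in 7 other settings (adjusted p 0.0520 to 0.311). Kcnab1 passed in neither genotype comparison (-0.35 and 0.26, adjusted p = 0.124 and 0.236), nor did Kcnj4 or Kcnip4, with log2 changes between -0.11 and 0.03.

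**Figure D5:**
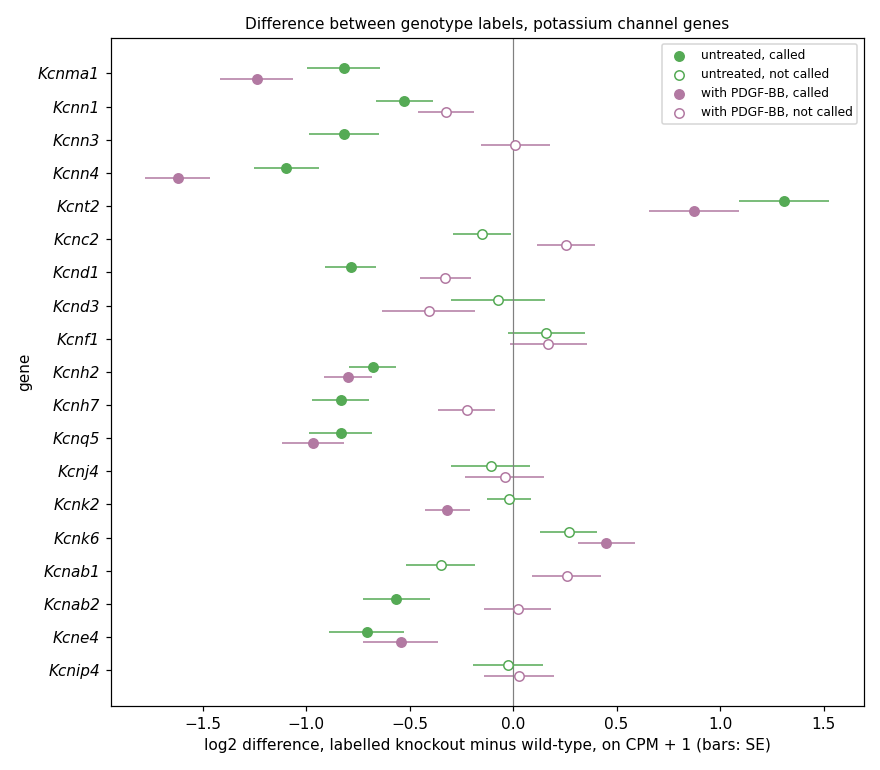
Log2 change in labelled KO against WT on log2(CPM + 1) for 19 of the 20 genes, untreated and with PDGF-BB, with standard errors from the fit; the vertical line marks 0. Kcnt2 lies to the right (1.31 and 0.87), and Kcnn4, Kcnma1, Kcnq5 and Kcnh2 lie to the left in both.

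Whether the PDGF-BB response differed between the genotypes was tested as the response in labelled KO minus that in WT. No channel gene passed (0 of 20, against 2.25% of all genes higher and 1.68% lower, 3.92% in either direction), so a call in 1 genotype alone does not show that the responses differed. At an unadjusted p under 0.05 there were 7 of 20 with limma-trend, beside 19.2% of all genes, while edgeR called 0 of 20 (4 at an unadjusted p under 0.05) and DESeq2 called 1 of 20, Kcnn3 (adjusted p = 0.0464). The lowest adjusted p was that of Kcnn3 (difference 0.83, SE 0.239, limma-trend adjusted p = 0.0730), which fell in WT and did not pass the test in labelled KO. Without treated WT replicate 1, 2 of 19 channel genes passed, Kcnn3 and Kcnt2 (0.61 and -0.76, limma-trend adjusted p = 0.0419 and 0.0246). In that fit 5.74% of all genes were higher and 5.22% lower, so the members' share was near the background. Without treated WT replicate 2 Kcnn3 passed (0.98, limma-trend adjusted p = 0.0407). Shares of all genes are not given here for that fit or for the edgeR and DESeq2 counts. For Kcnn4 the difference was -0.53 on the log2(CPM + 1) scale (SE 0.224, limma-trend adjusted p = 0.222). As plain ratios, its mean CPM rose 6.95 times in WT and 7.28 times in labelled KO. Over 21 alternatives the Kcnn4 difference ran from -0.65 to 0.04 and was never called, so its sign depended on the setting.

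The listed genes that act with these channels on membrane potential and calcium numbered 46, of which 34 passed the filter. Of the 34, 14 were higher and 13 lower with PDGF-BB in WT, which is 41.2% and 38.2% against 25.0% and 34.4% of all genes, and 10 higher and 11 lower in labelled KO, 29.4% and 32.4% against 17.6% and 24.8%. In labelled KO against WT, 11 were higher and 7 lower untreated, 32.4% and 20.6% against 9.15% and 24.8%, and 12 higher and 6 lower with PDGF-BB, 35.3% and 17.6% against 10.6% and 26.6%. Without treated WT replicate 1, 16 were higher and 12 lower with PDGF-BB in WT, and 13 and 13 in labelled KO. In labelled KO against WT that fit gave 15 higher and 10 lower untreated, and 11 and 7 with PDGF-BB. Shares of all genes in these 4 comparisons are not given for that fit. Under TMM scaling 14 of the 34 were higher and 12 lower with PDGF-BB in WT (29.5% and 29.4% of all genes), and 12 and 11 in labelled KO (21.0% and 21.6%). In labelled KO against WT that scaling gave 12 higher and 6 lower untreated (13.6% and 14.3% of all genes). With PDGF-BB it gave 13 higher and 5 lower (13.6% and 15.1%). Ano1, the calcium-activated chloride channel that depolarises smooth muscle, had means of 80.3 ± 5.45 CPM in untreated WT and 369.5 ± 46.0 in treated WT, and 153 ± 30.3 and 432.5 ± 1.90 in labelled KO (SD, n = 3). It rose in both genotypes (log2 change 2.18 and 1.51, SE 0.120 for each, limma-trend adjusted p = 1.07e-08 and 7.16e-07). Cacna1c, the pore of the L-type calcium channel that opens on depolarisation, had means of 12.8 ± 1.22 CPM in untreated WT and 4.35 ± 2.38 in treated WT. Its labelled KO means were 33.7 ± 3.53 CPM untreated and 11.3 ± 0.740 with PDGF-BB (SD, n = 3). It fell with PDGF-BB in both genotypes (-1.46 and -1.5, SE 0.219 for each, limma-trend adjusted p = 8e-05 and 0.000123). Cacna1c was higher in labelled KO untreated and with PDGF-BB (1.33 and 1.28 in that order, adjusted p = 0.000404 and 0.000565).

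Other calcium channel genes fell with PDGF-BB in both genotypes: the log2 changes in WT and labelled KO were -1.49 and -1.23 for Cacna1d, another L-type pore, and -1.16 and -1.24 for Cacnb4, a beta subunit. Itpr3, a receptor that releases calcium from stores, rose by 1.04 and 1.38 on the same scale. In labelled KO the cation channel Trpc6 was higher by 1.73 untreated and 2.03 with PDGF-BB, the sodium pump subunit Atp1b1 by 1.62 and 1.55, and the T-type pore Cacna1g by 1.20 and 1.82. Another T-type pore, Cacna1h, was higher by 1.58 with PDGF-BB. Trpv4, a cation channel whose calcium entry can open calcium-activated potassium channels, was lower, with log2 changes of -1.37 and -1.55. The sulfonylurea receptor Abcc9, partner of Kcnj8, had means of 1.79 ± 0.219, 2.00 ± 0.578, 1.14 ± 0.115 and 0.751 ± 0.416 CPM in untreated WT, treated WT, untreated labelled KO and treated labelled KO (SD, n = 3), and it passed only in labelled KO against WT with PDGF-BB (-0.78, SE 0.183, limma-trend adjusted p = 0.00495). Rest, the repressor that silences Kcnn4 and many neuronal channel genes, had means of 81.9 ± 3.53, 79.3 ± 9.18, 74.7 ± 0.741 and 73.3 ± 1.05 CPM in the same order and passed in no comparison. The difference between responses passed for 3 partners: Atp2b4, a plasma membrane calcium pump (0.90, SE 0.202, adjusted p = 0.0260), Ano1 (-0.67, SE 0.169, adjusted p = 0.0433) and Atp2a2, the reticulum calcium pump (-0.44, SE 0.104, adjusted p = 0.0301). That is 1 higher and 2 lower of 34, against 2.25% of all genes higher and 1.68% lower. With quantile normalization the calls of Ano1 and Atp2a2 were lost, and without treated WT replicate 1 the count went from 1 higher and 2 lower to 1 and 4, against 5.74% and 5.22% of all genes.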

How the data were processed

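Total RNA from 12 libraries was sequenced after stranded mRNA library preparation, per the labels' protocols. The submitters' processing notes name HISAT2, HTSeq and the build mm10; versions and the strand setting are not given in the sources used here. The deposited values are CPM, despite an FPKM file name: every column adds up to 1000000, and all values were whole reads within 0.001 read once multiplied by the library's total, so reads were recovered for count models. Per the file headers, the assembly is GRCm38.p6.

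Genes with at least 1 CPM in at least 3 of 12 libraries (14202) were fitted on log2(CPM + 1) with limma-trend (limma 3.58.1, R 4.3.3), 1 mean per group, 2-sided, with Benjamini-Hochberg adjustment over all genes kept and a threshold of 0.05. Alternatives were pseudocounts of 0.5 and 0.1, no filter, a mean of at least 5 CPM, TMM and quantile scaling, count models on those reads (edgeR 4.0.16, DESeq2 1.42.0), only the groups compared, a replicate block, and leaving out each library. Members given by library were, in each pairwise comparison, up to 6 largest rises and 6 largest falls among those called, plus Kcnma1, Kcnmb1, Kcnn4, Kcnj8 and Kcnj2. Partner genes named were up to 5 largest called changes per comparison plus Abcc9, Cacna1c and Rest. Some genes of the family enter the counts and are not reported here by name or drawn. The members and lists were chosen with earlier results of these data known. Promoters are RefSeq entries, and exon overlap used GENCODE. On simulated data for PDGF-BB in WT (13859 genes), 75% of 68 genes changed 1.5-fold, 89.9% of 69 changed 2-fold and 98.4% of 63 changed 4-fold were called, with 12 false among 187 calls. The simulation changed only 200 genes, drawn from all levels, and had no outlying library. Its rates were therefore not shown to hold for the real comparison or for channel genes of few reads.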

Additional observations from a re-analysis of the deposited data

How the results depend on the processing

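Of 2091 alternative values for single genes, 1986 kept their side of the threshold, 71 lost a call, 34 gained one and no called value changed sign. Of the 1986, 80 changed sign with neither value called, such as Kcnab2 and Kcnk6 with PDGF-BB in WT. The largest main value among these was the -0.53 of Kcnn4 in the difference between responses. Requiring a mean of at least 5 CPM left 6 channel genes tested and gave, higher and lower, 2 and 2 with PDGF-BB in WT, 1 and 1 in labelled KO, 0 and 5 in labelled KO against WT untreated, and 0 higher with PDGF-BB. With PDGF-BB in labelled KO, 2 were higher and 5 lower in the main fit. Instead, no filter gave 1 and 2, quantile normalization 6 and 2, edgeR 4 and 3, TMM scaling 4 higher, and DESeq2 3 lower. Counts of all genes moved too, from 2502 higher and 3523 lower to 2857 and 2940 with quantile normalization. Under TMM scaling they were 2989 and 3071. Quantile normalization gave 2 higher in labelled KO untreated, no filter 1 higher with PDGF-BB, and DESeq2 1 higher in the difference between responses. All genes higher in labelled KO untreated went from 1300 to 1862 with quantile normalization. Fewer genes were tested at a mean of 5 CPM, and for the other settings the cause was not tested. Leaving out each library gave 3 to 6 higher with PDGF-BB in WT, 1 to 4 higher and 3 to 5 lower in labelled KO, 1 to 2 higher in labelled KO with PDGF-BB, and 0 to 1 in either direction for the difference between responses. The counts lower in labelled KO against WT changed too, through Kcnab2 untreated and genes such as Kcne4 and Kcnk2 with PDGF-BB. So did the count lower with PDGF-BB in WT, through Kcnj4 and Kcnip4. Counts of all genes are not given here for the other settings or the left-out libraries. For those, a shift of the channel genes cannot be told from a general shift. Tigar with PDGF-BB was 0.33 without the filter (adjusted p = 0.0560) and 0.28 to 0.37 over left-out libraries.

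The replicate numbers were not taken as pairs: the deviations of 18 same-numbered pairs correlated at -0.231 to 0.175 (median -0.009), with 3 over 0.1. The 36 pairs of different numbers correlated at -0.340 to 0.347 (median 0.017), with 7 over 0.1. A fit with the replicate block gave 4 instead of 5 lower with PDGF-BB in labelled KO and 5 instead of 6 lower in labelled KO with PDGF-BB, the calls of Kcnt2 and Kcnk2, and changed no other call. At the lowest depth 1 read is 0.0669 CPM, which limits Kcnma1 and Kcnd3, with 9 and 19 reads in the 3 untreated labelled KO libraries together. The log2(CPM + 1) scale understates such changes: edgeR gave 1.53 where Kcnd3 rose by 0.65 in WT.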
